A study of Neurospora crassa with 12 samples.

Results

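The mRNA levels of 9 genes of arginine metabolism and polyamine synthesis in *Neurospora crassa*, a filamentous fungus, were followed in Si*adat2* and WT mycelia. They were picked by locus identifier out of 9726 genes with a value in the mRNA-seq tables, by a rule that uses no measured value. The choice was made with earlier results of these data known. All 9 had a value in each of the 8 mRNA-seq libraries. Si*adat2* was derived from the host strain 301-6 (*bd*, *A*, *his-3*) and carries at *his-3* a construct that makes double-stranded RNA against *adat2*, the predicted catalytic subunit of the enzyme that deaminates adenosine to inosine at the wobble position of tRNAs. The construct was driven by the *qa-2* promoter, which quinic acid (QA) induces, and the strain was made homokaryotic. WT was 87-3 (*bd*, *a*), which differs from the host in mating type and at *his-3*, so these differences and the silencing cannot be told apart. Both strains were grown from fresh conidia in Vogel's medium with 0.1% glucose and 0.01 M QA, which stood in plates for 3 days and were then shaken for 1 day under constant light. The study's methods list arginine in this medium and the library labels do not name it. The independent mRNA-seq (2 Si*adat2* and 2 WT libraries) came from cultures without cycloheximide (CHX, a translation inhibitor). The accompanying mRNA-seq (2 libraries labelled Si*adat2* and 2 labelled WT) was made beside ribosome profiling, from cultures given CHX at 50 µg/ml for the last 10 min. The replicates are independent biological replicates according to the study.

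Fungi build arginine from glutamate. Acetylated intermediates lead to ornithine in the mitochondria, ornithine is joined to carbamoyl phosphate to give citrulline, and citrulline is turned into argininosuccinate and then arginine in the cytosol. Arginase splits arginine into urea and ornithine, which ornithine aminotransferase passes towards proline and glutamate. Ornithine decarboxylase instead turns ornithine into putrescine, the first polyamine. In *N. crassa* several genes of the synthetic route respond to cross-pathway control, through which shortage of any of several amino acids activates genes of many amino acid pathways, and *arg-2* in addition is controlled by arginine through an upstream reading frame in its mRNA.

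The genes lie on 6 chromosomes of assembly NC12. Ornithine synthesis is represented by *arg-6* (NCU00567, chromosome I, 7977907 to 7981684), which encodes acetylglutamate kinase and acetylglutamyl phosphate reductase. Citrulline synthesis is represented by *arg-2* (NCU07732, chromosome IV, 2061118 to 2063726) and *arg-3* (NCU02677, chromosome I, 3170235 to 3175788), the small and large subunits of the arginine-specific carbamoyl phosphate synthetase, and by *arg-12* (NCU01667, chromosome II, 2759149 to 2761168), ornithine carbamoyltransferase. The last steps are *arg-1* (NCU02639, chromosome I, 3021493 to 3024070), argininosuccinate synthase, and *arg-10* (NCU08162, chromosome VII, 3592420 to 3594494), argininosuccinate lyase. Breakdown is represented by *aga* (NCU02333, chromosome VII, 2873838 to 2876240), arginase, and *ota* (NCU00194, chromosome III, 2949400 to 2952208), ornithine aminotransferase. Ornithine decarboxylase is *spe-1* (NCU01271, chromosome V, 3470938 to 3474214). All 9 genes had a high codon bias index, a score of how far the codons of a gene are restricted to preferred ones. It lay between 0.405 (*ota*) and 0.726 (*arg-1*), with a median of 0.6, against a median of 0.211 over 9015 genes.

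The accompanying libraries held 1547105 and 2777576 reads for Si*adat2* and 961703 and 2361460 reads for WT, and the depth of the independent libraries is unknown. In this kind *adat2* (NCU01888) was hit by 16 and 90 reads where the label is Si*adat2*, against 8 and 25 reads where it is WT, so it was not lower where it should be silenced. Reads of the silencing construct and of the gene itself cannot be told apart there. By quantitative RT-PCR, which is not part of these libraries, the study reported a strong fall of *adat2* mRNA in this strain. The independent tables list *adat2* at 0 in all 4 libraries and so do not check the strain. The *mat A* genes, which belong to the host's mating type, were listed at 0 in every independent library and had at most 2 reads in any accompanying library. Markers of conidia and aerial hyphae (*con-6*, *con-8*, *con-10*, *con-13*, *eas* and *fl*) were higher in both Si*adat2* libraries in both kinds of mRNA-seq, for each of the 5 with an independent value and for all 6 in the accompanying tables. They took 8.50% and 6.83% of the accompanying reads in libraries labelled Si*adat2*, against 0.226% and 0.232% in those labelled WT. The 5 with an independent value, which leave out *eas*, summed to 4598 and 6023 FPKM in Si*adat2*, against 2409.6 and 2352 FPKM in WT. FPKM are fragments scaled to transcript length and library size. In the accompanying kind *eas* had 107466 of 131521 marker reads in Si*adat2* replicate 1 and 1172 of 2175 in WT replicate 1. The read shares and this sum therefore cover unlike sets. This marker difference moves with every strain comparison below, and its part in the results was not tested. In mycelial RNA, fewer cells of a type and less RNA per cell cannot be told apart.

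In the independent mRNA-seq the 6 synthesis genes among the 9 rose in Si*adat2*, by 6.01-fold for *arg-6* to 59.8-fold for *arg-3* (ratio of mean FPKM). Arginase mRNA fell to 0.333 of its WT mean, *spe-1* rose 1.89-fold, and *ota* did not pass the test. Thus 7 of the 9 genes were called higher and 1 lower at an adjusted p under 0.05, where 20.9% of the 7547 genes tested were called higher and 28.3% lower (limma on log2(FPKM + 0.1), Benjamini-Hochberg adjusted over all genes tested). The median log2 fold change was 2.97 over the 9 genes, against -0.13 over all genes tested. By a ratio of mean FPKM past 2-fold, 6 of the 9 were higher and 1 lower, where 15.1% of 8095 genes were higher and 12.7% lower. Fold changes on the log2(FPKM + 0.1) scale understate the change of low genes. The 6 synthesis genes together held 0.477% and 0.393% of all FPKM in the Si*adat2* libraries, against 0.0325% and 0.0326% in the WT libraries.

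**Figure D1:**
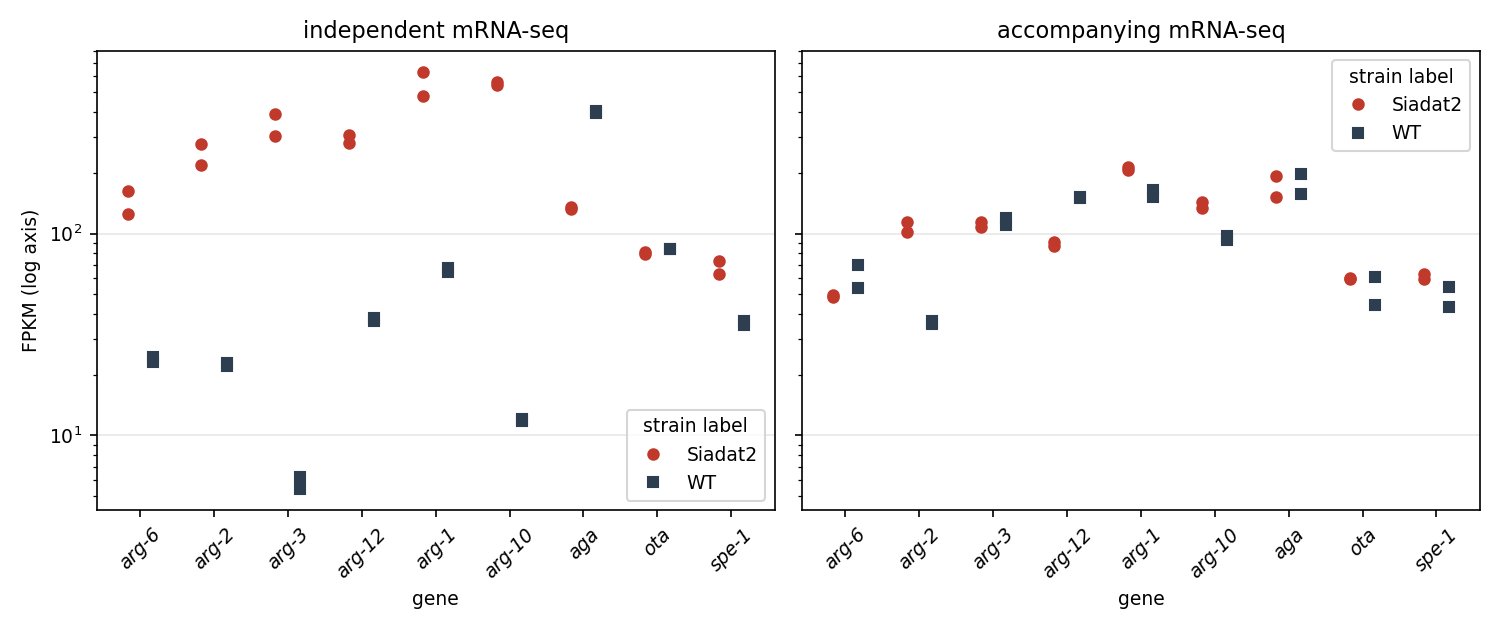
Level of the 9 genes in each library, in FPKM on a log axis, with 1 point per library, Si*adat2* as circles and WT as squares, in the independent (left) and accompanying (right) mRNA-seq. In the independent libraries the 6 *arg* genes lie far higher in Si*adat2* and *aga* lower, with *arg-3* at 393 and 304 FPKM in Si*adat2* and 5.42 and 6.22 FPKM in WT, while in the accompanying libraries the strains lie closer together and differ most for *arg-2* and *arg-12*.

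Among the citrulline genes, *arg-3* had 393 and 304 FPKM in the Si*adat2* libraries, against 5.42 and 6.22 FPKM in the WT libraries. As listed it was the lowest of the 9 genes in WT, a rank that passed to *arg-10* with NCU02678 added as below. In Si*adat2* it stood, together with *arg-12*, below only *arg-1* and *arg-10*. Its log2 fold change of 5.87 ± 0.17 (SE, adjusted p = 0.0006608, limma) ranked 89 from the highest of all 7547 genes. The annotated *arg-3* shares 1101 bases (chromosome I, 3174688 to 3175788) with NCU02678, and the tables can divide reads between them. NCU02678 was listed at 0 in both Si*adat2* libraries and at 7.95 and 7.43 FPKM in the WT libraries. With all of its FPKM added to *arg-3*, the sum was 393 and 304 FPKM in Si*adat2* and 13.4 and 13.7 FPKM in WT. This gives a ratio of means of 25.8, by an alternative chosen after the data were seen. FPKM are scaled to each transcript's own length. Here and below, such a sum is therefore not the level that reassigned reads would give.

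The small subunit gene *arg-2* had 277 and 218 FPKM in Si*adat2*, against 22.0 and 22.9 FPKM in WT. The libraries of the strains were widely separated, and the mean ratio was 11.0 (log2 3.45 ± 0.14 SE, adjusted p = 0.001062, limma). *arg-12* had 308 and 280.0 FPKM in Si*adat2*, against 38.2 and 36.9 FPKM in WT, or 7.84-fold (log2 2.97 ± 0.08 SE, adjusted p = 0.0006608, limma). It shares 206 bases (chromosome II, 2760963 to 2761168) with *ilv-4*, whose log2 fold change was 2.82 ± 0.11 in the same libraries, so reads from the shared stretch are uncertain.

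The subunits of carbamoyl phosphate synthetase did not keep a constant ratio. The *arg-3* level divided by the *arg-2* level was 1.42 and 1.39 in Si*adat2*, against 0.246 and 0.272 in WT. The same ratio was 0.607 and 0.597 in the WT libraries after NCU02678 was added to *arg-3*, still below both Si*adat2* values. Cufflinks coverage in place of FPKM gave the same ratios. Within a library coverage is proportional to FPKM, so this result was fixed in advance and is no check.

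Of the last steps, *arg-10* had 544 and 565 FPKM in Si*adat2*, against 11.7 and 12.1 FPKM in WT. This 46.6-fold ratio (log2 5.53 ± 0.07 SE, adjusted p = 0.0005423, limma) ranked 106 from the highest of all genes. *arg-1* had the highest WT level of the synthesis genes, with 634 and 481 FPKM in Si*adat2*, against 67.5 and 64.4 FPKM in WT, or 8.46-fold (log2 3.06 ± 0.16 SE, adjusted p = 0.001449, limma). In ornithine synthesis *arg-6* had 162 and 125 FPKM in Si*adat2*, against 23.1 and 24.5 FPKM in WT (log2 2.57 ± 0.16 SE, adjusted p = 0.001883, limma). For none of these genes did the strains overlap. The annotated *arg-1* shares 359 bases (chromosome I, 3021493 to 3021851) with NCU14015, which was not analysed here. Both annotated *arg-6* transcripts were expressed, and the T0 form held 62.7% and 66.1% of the gene's FPKM in Si*adat2* and 59.96% and 64.6% in WT, ranges that overlap. The highest synthesis gene was 3.91 and 4.54 times the lowest within the Si*adat2* libraries and 12.4 and 10.3 times within the WT libraries. With NCU02678 added to *arg-3*, it was 5.75 and 5.34 times within the WT libraries and as before in Si*adat2*.

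The breakdown genes and *spe-1* moved less. Arginase, *aga*, had 135 and 133 FPKM in Si*adat2*, against 407 and 397 FPKM in WT, where it was the highest of the 9 (log2 -1.58 ± 0.07 SE, adjusted p = 0.001072, limma). The ornithine aminotransferase gene *ota* had 80.9 and 79.2 FPKM in Si*adat2*, against 83.8 and 83.8 FPKM in WT (log2 -0.07 ± 0.07 SE, adjusted p = 0.4476, limma). *spe-1* had 63.1 and 73.0 FPKM in Si*adat2*, against 36.8 and 35.0 FPKM in WT (log2 0.92 ± 0.11 SE, adjusted p = 0.00666, limma). This last call was lost when either WT library was left out (limma adjusted p = 0.0752 without replicate 1 and 0.0847 without replicate 2). Assembled transcripts were assigned to a gene only where their locus held no other annotated gene. Such a transcript was listed for *spe-1* at 16.6 FPKM in Si*adat2* replicate 1, and with it *spe-1* reached 79.8 FPKM there. In no other library was a transcript so assigned to *spe-1*.

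The order of levels is given here for the independent kind. Within Si*adat2* it was *arg-1* (558 ± 108 FPKM, SD, n = 2), *arg-10* (555 ± 15.0), *arg-3* (348 ± 62.6), *arg-12* (294 ± 19.7), *arg-2* (248 ± 41.6), *arg-6* (143 ± 26.4), *aga* (134 ± 1.30), *ota* (80.1 ± 1.20) and *spe-1* (68.1 ± 6.97). The neighbours *arg-1* and *arg-10*, *arg-3* and *arg-12*, and *arg-6* and *aga* overlapped between libraries. In WT the order was *aga* (402 ± 6.77 FPKM, SD, n = 2), *ota* (83.8 ± 0.017), *arg-1* (65.9 ± 2.20), *arg-12* (37.5 ± 0.93), *spe-1* (35.9 ± 1.28), *arg-6* (23.8 ± 0.97), *arg-2* (22.5 ± 0.59), *arg-10* (11.9 ± 0.22) and *arg-3* (5.82 ± 0.57), with no overlap between neighbours. With NCU02678 added to *arg-3*, *arg-10* was the lowest synthesis gene in WT. In the independent kind, breakdown genes thus headed the list in WT and synthesis genes headed it in Si*adat2*. In the accompanying kind *ota* ranked 7 in the libraries labelled WT. There *aga* ranked 1 in those libraries and 2 in the libraries labelled Si*adat2*.

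The accompanying mRNA-seq gave another picture of the same strains. Of the 9 genes, *arg-2* rose and *arg-12*, *arg-6* and *arg-3* fell in the libraries labelled Si*adat2*, a split that depends on the scaling as given below. This is 1 gene called higher and 3 lower, where 23.9% of the 7362 genes tested were called higher and 25.9% lower (edgeR quasi-likelihood test, Benjamini-Hochberg adjusted over all genes tested). The median log2 fold change was -0.08 over the 9 genes, against 0.03 over all genes tested. The synthesis genes held 0.0819% and 0.0859% of all FPKM in the libraries labelled Si*adat2*, against 0.0784% and 0.0828% in those labelled WT.

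The small subunit gene *arg-2* had 255 and 509 reads in the libraries labelled Si*adat2*, against 59 and 138 reads in those labelled WT. Scaled to library size, in RPM (reads scaled to the library's total), this is 165 (Wilson 95% interval 146 to 186) and 183 (168 to 199.9), against 61.3 (47.6 to 79.1) and 58.4 (49.5 to 69.0). These intervals cover counting error only, and those of the strains are apart. The log2 fold change was 1.26 ± 0.16 (SE, adjusted p = 9.516e-06, edgeR quasi-likelihood test). *arg-12* had 189 and 353 reads in the libraries labelled Si*adat2*, against 207 and 508 in those labelled WT, or 122 (106 to 141) and 127 (115 to 141) RPM, against 215 (188 to 247) and 215 (197 to 235). It fell by 1.07 ± 0.13 on the log2 scale (SE, adjusted p = 6.43e-06, edgeR quasi-likelihood test). Its overlapping neighbour *ilv-4* fell in these libraries as well (log2 -0.85 ± 0.13 SE, adjusted p = 5.46e-05, edgeR quasi-likelihood test).

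The other 2 genes called lower changed less. *arg-6* had 224 and 391 reads in the libraries labelled Si*adat2*, against 155 and 484 in those labelled WT. In RPM this is 145 (127 to 165) and 141 (127 to 155), against 161 (138 to 189) and 205 (187 to 224), so that the intervals overlap with WT replicate 1. Its change was called lower with TMM (log2 -0.67 ± 0.15 SE, adjusted p = 0.001471, edgeR quasi-likelihood test). *arg-3* had 645 and 1211 reads, against 417 and 1097 (log2 -0.37 ± 0.11 SE, adjusted p = 0.01135, edgeR quasi-likelihood test), and without WT replicate 2 its adjusted p was 0.111. In FPKM, *arg-3* was 108 and 114 in the libraries labelled Si*adat2*, against 110.4 and 119.7 in those labelled WT, so that the strains overlapped.

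The other 5 genes did not pass the test. *arg-1* had 498 and 865 reads in the libraries labelled Si*adat2*, against 225 and 592 in those labelled WT (log2 0.09 ± 0.12 SE, adjusted p = 0.5523, edgeR quasi-likelihood test). *arg-10* had 347 and 661 reads, against 151 and 387 (log2 0.24 ± 0.13 SE, adjusted p = 0.1371, edgeR quasi-likelihood test). Arginase, *aga*, had 395 and 558 reads, against 257 and 496 (log2 -0.34 ± 0.15 SE, adjusted p = 0.0782, edgeR quasi-likelihood test). With the experiment as a block, since each experiment held 1 library of each strain, *aga* was called lower as well (edgeR adjusted p = 0.001145), and so it was without Si*adat2* replicate 1 (log2 -0.55, edgeR adjusted p = 0.00518) or WT replicate 2 (-0.52, 0.00742). Without Si*adat2* replicate 2 it was -0.14 (edgeR adjusted p = 0.560), without WT replicate 1 it was -0.18 (0.379), and on the FPKM scale it was -0.04 (limma adjusted p = 0.845). *ota* had 150 and 269 reads, against 97 and 171, and *spe-1* had 159 and 299 reads, against 92 and 176, with log2 fold changes of -0.08 ± 0.18 and 0.05 ± 0.17 (SE). Neither passed the test, and the sign turned without WT replicate 1 for *ota* (0.12) and without WT replicate 2 for *spe-1* (-0.15).

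The small changes depended on the scaling of the libraries. TMM factors were 1.09 and 1.12 for the libraries labelled Si*adat2* and 0.909 and 0.901 for those labelled WT, and the median log2 fold change of all genes was 0.37 on the deposited FPKM scale, against 0.03 with TMM. On the FPKM scale 28.8% of 8012 genes were called higher and 15.0% lower. There *arg-2*, *arg-10* (log2 0.55, adjusted p = 0.0111) and *arg-1* (log2 0.41, adjusted p = 0.0236) were called higher, *arg-12* was called lower, and *arg-6* and *arg-3* did not pass (adjusted p = 0.160 and 0.732, limma). *ota* was -0.08 with TMM and 0.20 on the FPKM scale. By a ratio of mean FPKM past 2-fold, *arg-2* was higher (2.95-fold) and 0 of the 9 were lower, where 23.7% of 8417 genes were higher and 11.2% lower.

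**Figure D2:**
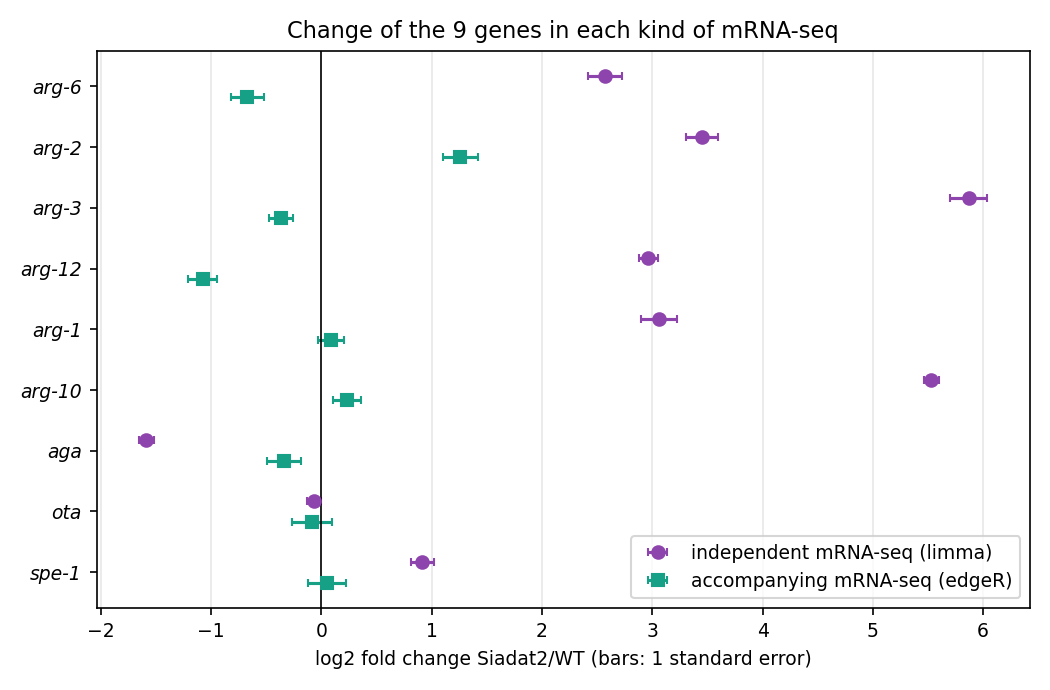
Log2 fold change of each of the 9 genes, Si*adat2* over WT, with 1 standard error, in the independent (circles, limma on FPKM) and accompanying (squares, edgeR on reads) mRNA-seq. The *arg* genes span 2.57 to 5.87 in the independent kind and -1.07 to 1.26 in the accompanying kind.

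Unless NCU02678 is added, as given below, the difference between the kinds was largest for *arg-3*. In FPKM it was 393 and 304 in the Si*adat2* libraries of the independent kind and 108 and 114 in those so labelled in the accompanying kind, but 5.42 and 6.22 in WT in the independent kind and 110.4 and 119.7 in the accompanying kind. The kinds were normalized separately, so their levels are set side by side only. Other genes differed in another way, with mean *arg-2* at 248 FPKM in Si*adat2* in the independent kind and 107 in the accompanying kind, and at 22.5 and 36.4 FPKM in WT. For *arg-6* these means were 143 and 48.8 FPKM in Si*adat2*, and 23.8 and 61.8 FPKM in WT. By rank within a library, *arg-3* stood above 97.6% and 96.9% of genes in the independent Si*adat2* libraries, against 37.4% and 39.6% in WT. In the accompanying kind it stood above 87.8% and 88.2% of genes in the libraries labelled Si*adat2*, against 88.7% and 89.3% in those labelled WT. For *arg-10* the ranks were 98.5% and 98.5% in Si*adat2* against 50.3% and 51.3% in WT in the independent kind, and 90.1% and 90.7% against 86.4% and 87.1% in the accompanying kind. The subunit ratio of *arg-3* to *arg-2* turned round, at 1.07 and 1.00 in the accompanying libraries labelled Si*adat2*, against 2.98 and 3.35 in those labelled WT.

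**Figure D3:**
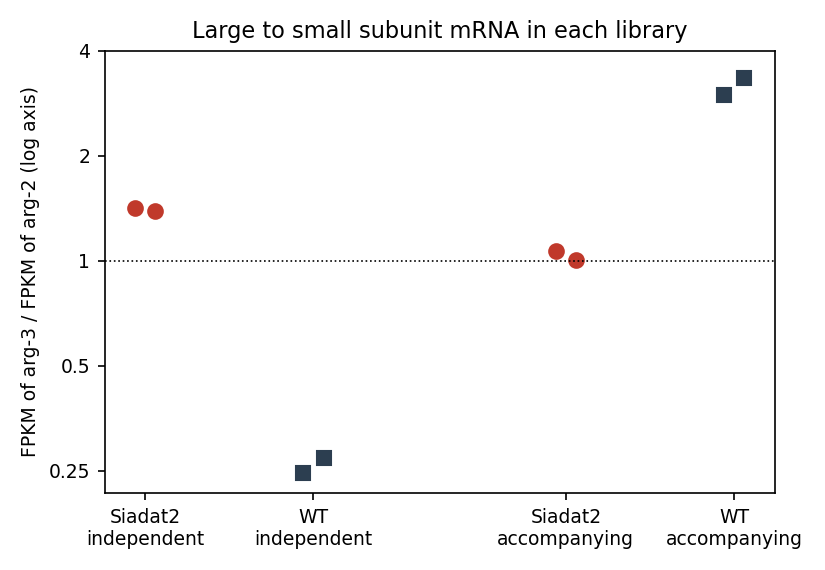
FPKM of *arg-3*, the large subunit, divided by FPKM of *arg-2*, the small subunit, in each of the 8 libraries on a log axis, Si*adat2* as circles and WT as squares, with a dotted line at 1. The ratio was higher in Si*adat2* in the independent kind (1.42 and 1.39, against 0.246 and 0.272 in WT) and lower in the libraries labelled Si*adat2* in the accompanying kind (1.07 and 1.00, against 2.98 and 3.35).

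A direct test of the difference between the kinds, as the interaction of strain and kind over all 8 libraries, called 7 of the 9 genes (limma on log2(FPKM + 0.1)). The Si*adat2* to WT change was greater in the independent kind for the 6 synthesis genes and lower for *aga*, where 15.9% of the 7171 genes tested were called greater and 34.0% lower. With each library centred on its median these shares were 21.8% and 19.9%. The difference of log2 fold changes was 5.92 ± 0.21 (SE) for *arg-3*, 4.98 ± 0.13 for *arg-10*, 3.73 ± 0.13 for *arg-12*, 2.90 ± 0.24 for *arg-6*, 2.66 ± 0.20 for *arg-1* and 1.89 ± 0.19 for *arg-2*, against a median of -0.53 over all genes tested (-0.13 after centring). With NCU02678 added to *arg-3* in both kinds, its difference was 4.65 ± 0.21 (SE, limma adjusted p = 1.91e-05), and NCU02678 alone had a difference of -7.12 ± 0.71. The difference was -1.54 ± 0.21 for *aga* (adjusted p = 0.001676, limma), and the other 6 had lower adjusted p-values. It was 0.58 ± 0.20 for *spe-1* (adjusted p = 0.05401, limma), which passed after centring (0.98, adjusted p = 0.0127). For *ota* it was -0.27 ± 0.22 (adjusted p = 0.3337, limma), and it turned to 0.14 after centring. *spe-1* also passed without independent Si*adat2* replicate 1 (0.68, adjusted p = 0.0461) or accompanying WT replicate 2 (0.75, adjusted p = 0.0172), and *ota* without accompanying WT replicate 1 (-0.50, adjusted p = 0.0230). CHX, the library kit, the counting and the cultures differ together between the kinds and cannot be told apart.

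**Figure D4:**
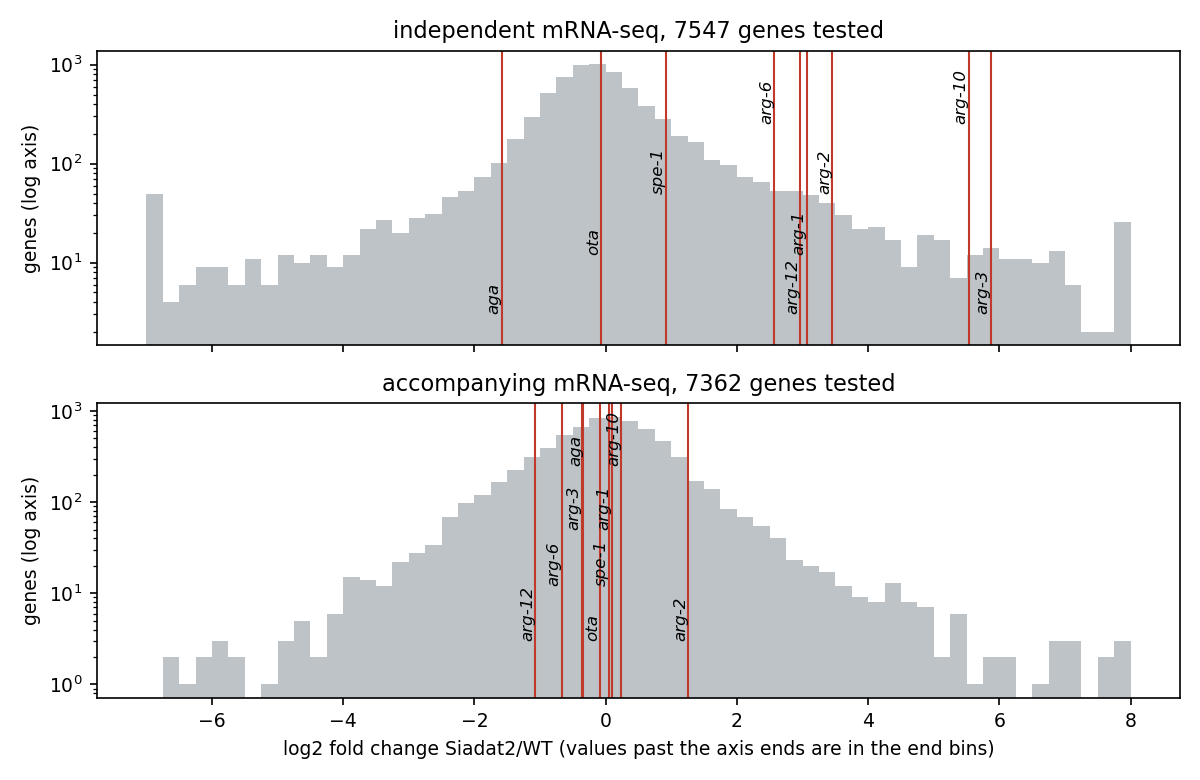
Distribution of log2 fold changes, Si*adat2* over WT, over all genes tested (grey bars, log axis), with red lines at the 9 genes, in the independent (top, 7547 genes) and accompanying (bottom, 7362 genes) mRNA-seq. The *arg* genes lie in the right tail in the independent kind, with *arg-3* at 5.87 and *arg-10* at 5.53, and in the accompanying kind *arg-12* at -1.07 and *arg-2* at 1.26 are the outermost of the 9.

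A list of 14 other genes of arginine, ornithine, proline and polyamine metabolism was set by identifier or symbol. In the independent kind 10 of them were called higher and 2 lower in Si*adat2*, where 20.9% of all genes tested were called higher and 28.3% lower (limma). The 10 include *arg-13* and *pro-1*, whose calls rest on WT values listed at 0 in tables that also list *adat2* at 0 throughout. Of the 12 others, 8 were called higher and 2 lower. Of the 14, *pro-3*, *spe-2*, *spe-3*, NCU07117, NCU02227 and NCU02936 did not pass with either WT library left out. In the accompanying kind 6 were called lower in the libraries labelled Si*adat2* and the other 8 did not pass the test, where 25.9% of all genes tested were called lower (edgeR quasi-likelihood test). With the experiment as a block, NCU07117 and *arg-4* were called higher there as well (edgeR adjusted p = 0.0189 and 0.0380). On the deposited FPKM scale 3 were called higher (NCU07117, *arg-14* and *arg-4*) and 2 lower (*arg-5* and NCU02936). Over all genes, 28.8% of 8012 were called higher and 15.0% lower on that scale (limma). Among these 14 genes, the other falls called in this kind thus depended on the scaling. *arg-5*, acetylornithine aminotransferase, had 114 and 99.2 FPKM in Si*adat2*, against 2.05 and 2.45 FPKM in WT (log2 5.51 ± 0.14 SE, adjusted p = 0.0006428, limma). The argJ gene *arg-4* (NCU10468) had 169 and 133 FPKM, against 15.7 and 15.5 FPKM (log2 3.26 ± 0.14 SE, adjusted p = 0.001107, limma). *arg-14*, acetylglutamate synthase, did not pass the test, with 32.6 and 25.3 FPKM in Si*adat2*, against 35.5 and 35.6 FPKM in WT. *arg-13*, a mitochondrial carrier of basic amino acids, had 12.9 and 16.1 FPKM in Si*adat2* and was listed at 0 in both WT libraries, so no fold is given. In the accompanying kind *arg-5* was the other way round, with 170 and 274 reads in the libraries labelled Si*adat2*, against 150 and 370 in those labelled WT (log2 -0.88 ± 0.15 SE, adjusted p = 0.0001646, edgeR quasi-likelihood test). *arg-4* did not pass there without the block (log2 0.19 ± 0.12 SE).

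The gene annotated as arginyl-tRNA synthetase (NCU08195) rose in the independent kind (log2 1.97 ± 0.15 SE). It fell in the accompanying kind with TMM (log2 -0.54 ± 0.13 SE) and did not pass on the FPKM scale (-0.22). Of the proline genes, *pro-4* (glutamate kinase) and *pro-3* (glutamyl phosphate reductase) rose by 1.77 and 1.38 on the log2 scale in the independent kind, and *pro-1* had 3.43 and 3.03 FPKM in Si*adat2* and was listed at 0 in both WT libraries, whereas the accompanying kind lists it at 23.3 and 22.4 FPKM in the libraries labelled Si*adat2*, against 24.6 and 18.5 FPKM in those labelled WT. Proline oxidase (NCU02936), a breakdown enzyme, fell in both kinds, by 0.57 ± 0.11 in the independent and 1.12 ± 0.11 in the accompanying (log2, SE). The gene annotated as acetylornithine deacetylase (NCU02227) fell by 0.89 ± 0.10 in the independent kind. It was called lower in the accompanying kind with TMM (log2 -0.37 ± 0.14 SE), but its FPKM overlapped, with 96.2 and 89.8 in the libraries labelled Si*adat2*, against 91.3 and 102 in those labelled WT, and it did not pass on that scale (log2 -0.05) or without Si*adat2* replicate 2 (-0.28) or WT replicate 2 (-0.29). Among polyamine genes downstream of *spe-1*, *spe-2* (S-adenosylmethionine decarboxylase) and *spe-3* (spermidine synthase) rose by 0.82 ± 0.22 and 0.59 ± 0.13 in the independent kind (log2, SE), with adjusted p = 0.04887 and 0.03095 (limma). *spe-2* did not pass in the accompanying kind. There *spe-3* was called lower with TMM (log2 -0.43 ± 0.15 SE), but its FPKM overlapped, with 164 and 136 in the libraries labelled Si*adat2*, against 174 and 154 in those labelled WT, and it did not pass on that scale (-0.13) or without Si*adat2* replicate 2 (-0.26) or WT replicate 1 (-0.35). The gene annotated as ornithine-N5-oxygenase (NCU07117) rose by 0.97 ± 0.09 in the independent kind, and *arg-15* passed in neither kind.

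**Figure D5:**
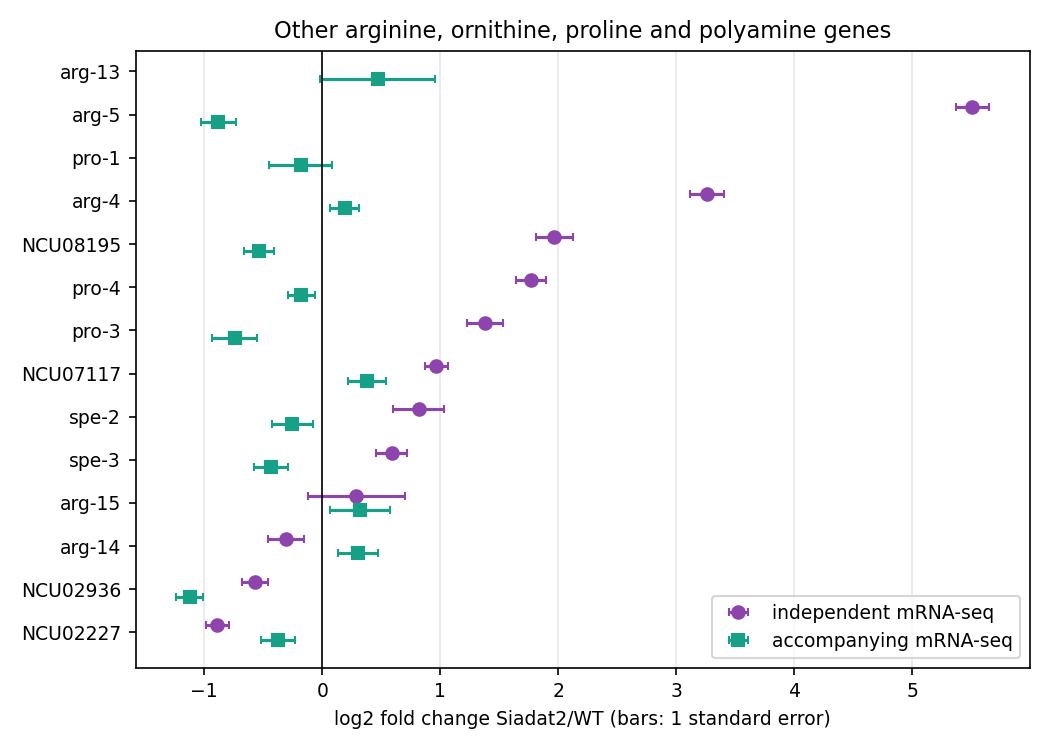
Log2 fold change, Si*adat2* over WT, with 1 standard error, of 14 other genes of arginine, ornithine, proline and polyamine metabolism in the independent (circles) and accompanying (squares) mRNA-seq. No independent value is drawn for *arg-13* and *pro-1*, which were listed at 0 in both WT libraries, and *arg-5* has the largest drawn change at 5.51.

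The genes most like each member were sought by the Euclidean distance of log2(FPKM + 0.1) over the 8 mRNA libraries, each kind centred on its own mean, among 7171 genes. Nearest to *arg-1* was *aro-1* (distance 0.142), which encodes a pentafunctional enzyme of the shikimate pathway. *ilv-4* stood second nearest to *arg-12* (0.331) and to *arg-6* (0.422). It shares 206 bases with *arg-12*, so reads from that stretch can enter the first of these distances. Nearest to *arg-6* was NCU01241 (0.284), to *arg-2* NCU05257 (0.309), to *arg-3* NCU03794 (0.390), to *arg-10* NCU00620 (0.550) and to *arg-12* NCU09488 (0.309). For *aga*, *ota* and *spe-1* the nearest were NCU05606 (0.317), NCU07859 (0.112) and NCU07058 (0.198). Among the members themselves the closest were *arg-6* and *arg-12* (0.672) and then *arg-3* and *arg-10* (0.760). *arg-10* was the 8th nearest of all genes to *arg-3*, whereas *ota* was only the 2178th nearest to *aga*. These distances describe likeness over 8 libraries only.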

How the data were processed

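The tables that the authors deposited for the accompanying kind hold, per gene, a count of uniquely matching reads (Bowtie2) over the coding sequence and 100 bp on each side. They also hold a deposited FPKM derived from that count and a deposited score, the codon bias index given by CodonW. For the independent kind the deposited tables give FPKM and coverage, a signal, for each transcript, with Cufflinks columns (TopHat2 and Cufflinks are named in the submitters' processing notes). The library-size and length scaling was kept. The ribosome profiling files hold values per codon and were not used here.

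The FPKM of a gene is the sum over its annotated transcripts, and 72 genes were left out of the independent tables for a missing or failed transcript. Identifiers were matched to the NC12 gene table (9725 of 9726). The independent kind was tested with limma 3.58.1 with a variance trend on log2(FPKM + 0.1), with genes under a mean FPKM of 1 left out. For the accompanying counts edgeR 4.0.16 was used, with TMM scaling, filterByExpr at a minimum count of 10 and the quasi-likelihood test. The difference between the kinds was tested with limma as an interaction over 8 libraries. P-values were Benjamini-Hochberg adjusted over all genes, with a threshold of 0.05. DESeq2 1.42.0 and the other alternatives are given in the closing section. Scripts were tested on simulated data.

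The members and gene lists were chosen with earlier results of these data known. The named genes were the 9 members, the label checks, the listed pathway genes and the 2 genes nearest to each member, of which the first is given, and *ilv-4*. The neighbours that overlap a member were named after their values were seen. Deviations of same-numbered libraries from the strain means correlated at 0.22 in the accompanying kind, where the study's methods put 1 library of each strain in an experiment, and at 0.0087 in the independent kind, where the libraries share only a number. The first accompanying libraries carry no number and were taken as replicate 1. No share interval is given for the independent kind, since its depth is unknown, and 18 of the 40 member transcript FPKM above 0 lay outside the deposited confidence bounds, which were not used. Promoter sequences were not analysed here.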

Additional observations from a re-analysis of the deposited data

Results flagged for a closer look

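The strain effect differed between the independent and the accompanying mRNA-seq for 7 of the 9 genes, by the interaction test over 8 libraries (limma, Benjamini-Hochberg adjusted over 7171 genes). Over all genes tested, 15.9% were called greater in the independent kind and 34.0% lower. The difference of log2 fold changes, independent minus accompanying, was 5.92 for *arg-3* (adjusted p = 7.976e-06), 4.98 for *arg-10* (3.524e-06), 3.73 for *arg-12* (7.027e-06), 2.90 for *arg-6* (0.0002329), 2.66 for *arg-1* (0.0001442), 1.89 for *arg-2* (0.0005211) and -1.54 for *aga* (0.001676). For *arg-3* the difference was 4.65 with NCU02678 added. A signal outside the annotated transcripts was an assembled transcript at the *spe-1* locus, listed at 16.6 FPKM in Si*adat2* replicate 1. No such transcript was assigned to *spe-1* in the other 3 independent libraries, where a locus shared with another annotated gene would be left out.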

How the results depend on the processing

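In the independent kind, 7 genes were called higher and 1 lower under each alternative that kept all 4 libraries and used limma, among them the addition of assembled transcripts and of NCU02678 to *arg-3*, both chosen after seeing the data. With NCU02678 added, the log2 fold change of *arg-3* was 4.67. Leaving out 1 library gave 6 to 7 higher and 1 lower, and the calls over all genes fell to 674 higher and 385 lower without WT replicate 1 and to 630 and 371 without WT replicate 2, against 1578 and 2134 with all libraries. They were 1732 higher and 2774 lower without Si*adat2* replicate 1 and 1773 and 2459 without Si*adat2* replicate 2. A lone library was then assumed to vary like the other strain. By a ratio of mean FPKM past 2-fold, 6 were higher and 1 lower. The replicate block, by shared number only, kept 7 higher and 1 lower in the independent kind, with *spe-1* at adjusted p = 0.0225 (limma).

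In the accompanying kind, limma on FPKM gave 3 genes higher and 1 lower, and the 2-fold ratio gave 1 higher and 0 lower. DESeq2 gave 1 higher and 3 lower, with 1041 genes called higher and 1462 lower over all genes, against 1760 and 1909 with edgeR. With no filter on low counts, and with the replicate block, *aga* was called lower too, which made 4 genes (edgeR adjusted p = 0.0332 without the filter). Over all genes, 1984 of 9015 were called lower without the filter and 2126 of 7362 with the block. The block changed no other call. *ota* turned to 0.20 on the FPKM scale, ranging from -0.35 to 0.12 with 1 library left out, and *spe-1* ranged from -0.15 to 0.20. Leaving out 1 library gave 3 to 4 genes lower. For the difference between the kinds, 1 to 2 genes were called lower with 1 library left out, and *ota* turned to 0.14 after centring. Over all alternatives the adjusted p ranged from 0.00143 to 0.0847 for *spe-1* in the independent kind (limma). In the accompanying kind it ranged from 0.00114 to 0.845 for *aga*, 1.3e-05 to 0.732 for *arg-3*, 3.07e-08 to 0.160 for *arg-6*, 0.0236 to 0.890 for *arg-1* and 0.0111 to 0.419 for *arg-10* (edgeR, DESeq2 or limma). For the difference between the kinds it ranged from 0.0127 to 0.150 for *spe-1* and 0.0230 to 0.811 for *ota* (limma). Causes were not tested.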
